A study of Mus musculus with 39 samples.

Results

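The genes described here are 10 mouse genes of antioxidant defence and metal binding, namely Hmox1, Nqo1, Gclc, Gclm, Srxn1, Txnrd1, Mt1, Mt2, Cat and Sod2. They were chosen by symbol from 29411 gene symbols on the array, and 12 of its 40628 probes carry one of them. Srxn1 has 3 probes and each other gene has 1, and each gene was read from its brightest probe. RNA came from brown fat of C57BL/6J mice, weaned and 3 to 4 weeks old at the start, and the labels call the tissue stromal vascular cells (SVCs) or infiltrating macrophages. In LFC, the low fat control diet, 10% of calories came from fat. In HFC, a diet high in fat and sucrose, 60% of calories came from fat. HF5, HF20 and HF75 are the HFC diet with 5, 20 or 75 µg of KAL-1, a botanical formulation given as an aqueous preparation. There were 10 LFC arrays (Day 1, 6, 10 and 14 and Week 0, 3, 9, 12, 15 and 18), 11 HFC arrays (the same labels and Week 6) and 6 arrays at each dose (Week 3, 6, 9, 12, 15 and 18). Each diet and time label is 1 array, although the series text speaks of replicates, and whether an array holds 1 animal or a pool is not given in the sources used here. The comparison of HFC with LFC asks what the rich diet did to these genes, and the comparison of each dose with HFC asks whether KAL-1 altered that.

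Cells meet oxidants and electrophiles with a shared programme. The transcription factor Nrf2 (gene Nfe2l2) is held low by Keap1 and, once released, binds antioxidant response elements (AREs) beside its target genes. Gclc and Gclm, the catalytic and modifier subunits of the enzyme that limits glutathione synthesis, Nqo1, Srxn1 and Txnrd1 are textbook targets, and so is Hmox1, which Bach1 represses until haem arrives. Metallothioneins are small cysteine-rich proteins that bind zinc and copper, and their genes answer to metals through Mtf1, which binds metal response elements (MREs), and to glucocorticoids. Sod2 turns superoxide into hydrogen peroxide inside mitochondria, and Cat breaks hydrogen peroxide down, mainly in peroxisomes. Macrophages make much Hmox1 when they clear red cells, whereas brown adipocytes are rich in both mitochondria and peroxisomes.

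Mt1 and Mt2 varied together over the arrays, as described further on, and their promoters are shown for that reason. They are neighbours on chromosome 8 of build GRCm38.p6, where Mt2 spans 94172618 to 94173567 and Mt1 spans 94178883 to 94180327, with 5316 bases from the end of one to the start of the other in the RefSeq annotation. Each sequence below is a RefSeq promoter window of 300 bases on the plus strand, 250 before and 50 after a transcript start, chr8:94178839-94179138 for Mt1 and chr8:94172368-94172667 for Mt2. The Mt1 window belongs to a start that lies inside the annotated gene. Capitals mark matches to the MRE core, searched as TGCACNC or TGCGCNC on both strands.
Mt1: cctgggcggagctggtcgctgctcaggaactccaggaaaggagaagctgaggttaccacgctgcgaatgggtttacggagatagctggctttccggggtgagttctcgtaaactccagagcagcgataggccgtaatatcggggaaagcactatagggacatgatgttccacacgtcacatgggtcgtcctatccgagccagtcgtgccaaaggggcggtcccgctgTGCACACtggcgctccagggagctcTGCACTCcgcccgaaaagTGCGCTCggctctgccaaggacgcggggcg
Mt2: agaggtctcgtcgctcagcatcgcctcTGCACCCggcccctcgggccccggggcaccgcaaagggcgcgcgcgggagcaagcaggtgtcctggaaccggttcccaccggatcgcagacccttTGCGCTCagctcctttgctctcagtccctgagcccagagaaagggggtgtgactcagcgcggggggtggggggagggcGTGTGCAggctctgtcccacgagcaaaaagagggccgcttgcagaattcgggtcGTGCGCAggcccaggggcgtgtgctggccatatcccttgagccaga

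The Mt1 window holds 3 matches and the Mt2 window holds 4. Most of the Mt1 window lies within the annotated gene, while the Mt2 window lies mostly before its gene, so these counts are not of like stretches. Of all 32851 windows in the table, 25.7% hold at least 1 such match and 1.97% hold at least 3. Windows were given for 8 of the 10 genes, with 3 for Txnrd1 and none for Hmox1 and Gclc. Gclm also holds 3 MRE matches and Srxn1 holds 1. The ARE core, searched as TGACNNNGC on both strands, has 1 match each in the windows of Gclm, Srxn1 and Mt2 and in 1 of the 3 Txnrd1 windows, and 12.4% of all windows hold it. A match is a run of letters in this window, not evidence of binding, and the Nqo1, Cat and Sod2 windows hold neither run.

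Levels are given as log2 of the processed signal minus the 75th percentile of the same array, so that 0 is the brightness of a probe at that percentile. One unit is a doubling, and levels were compared only within a gene, since probes differ in brightness for other reasons. Over the 39 arrays, 57.3% of spots (median) were well above background, and the lowest share was 31.2%, on HF5 Week 18. The signal at the 75th percentile, to which levels are scaled, ran from 18.1 on HF20 Week 9 to 3974 on HF20 Week 15. A median of 0.0799% of spots was marked as uneven or outlying, but 3 arrays exceeded 10%, and HF20 Week 15 reached 71.4%. On that array Hmox1, Nqo1, Gclc, Gclm and Cat have no usable spot, so they have 5 HF20 values, and every result on HF20 below rests on that array for the other genes. Ucp1, the heat-making uncoupling protein of brown adipocytes, was low on LFC Day 10 (-3.16) and HFC Week 12 (-3.18), against 1.48 to 8.82 on the other 37 arrays. The table deposited for the series heads the Day 14 columns of LFC and HFC the other way round from the scanner files, which were used as assigned, and the HF20 Week 12 array has a characteristic naming the high fat diet alone, while its title and source name give HF20.

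The labelled cell type was set against marker lists. All 10 macrophage markers were measured, with mean list levels from -1.25 to 2.56 over the arrays. The mean level of the 8 brown adipocyte markers ran from -2.49 to 5.09. RNA of fat cells was thus measured on these arrays beside that of macrophages, and in such bulk samples fewer cells of a type and less RNA per cell cannot be told apart.

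No diet or dose changed any of the 10 genes beyond the spread between arrays. In 1 fit of diet and time label over all 39 arrays (limma, Benjamini-Hochberg adjustment), 0 of 10 genes passed the threshold on the adjusted p (0.05) in any of the 10 pairwise comparisons of diets, in the trend with dose or in the change of the diet difference between early and late labels. The background was the same, since 0% of the 34043 probes tested passed in each of these 12 comparisons. The fit calls changes that are shared by the time labels of a diet, and it cannot test a diet at a single time label. Without adjustment (p under 0.05), 0 of 10 genes passed in HFC minus LFC, where 2.82% of all probes did, and 0 of 10 in HF5 minus HFC (1.46% of probes), HF20 minus HFC (2.66%) and HF75 minus HFC (3.55%). The 95% intervals were wide. Over the 10 genes they reached from -1.62 to 1.51 in HFC minus LFC, from -1.69 to 3.54 in HF5 minus HFC, from -2.68 to 2.23 in HF20 minus HFC and from -1.54 to 2.25 in HF75 minus HFC, so in each of these 4 comparisons the interval of 9 of 10 genes reached a change of 2-fold or more.

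**Figure D1:**
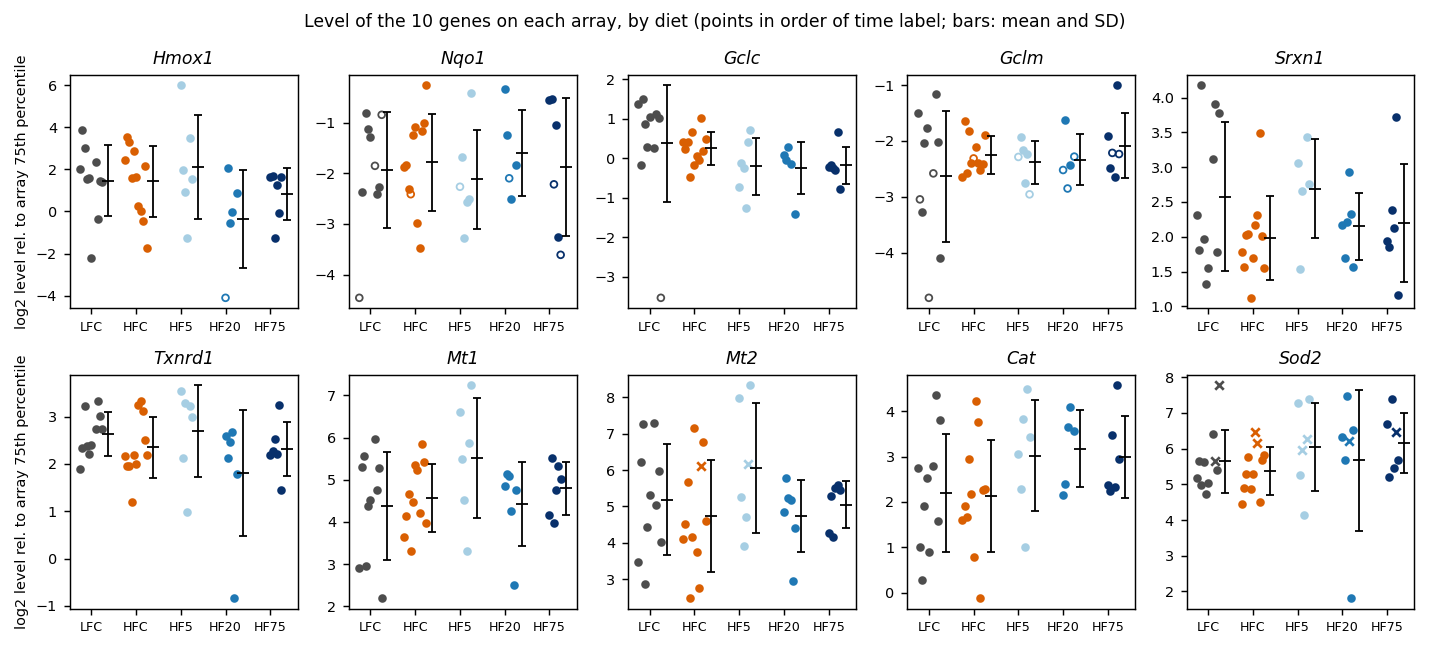
Level of each of the 10 genes (vertical axes, log2 relative to the array's 75th percentile, each panel on its own scale) on every array of the 5 diets. Each point is 1 array, in order of time label within a diet; open circles are not well above background, crosses are saturated, and the bars give mean and SD. The diets overlap for every gene, and Hmox1 has the widest range, from -4.11 to 6.01.

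Hmox1, the inducible haem oxygenase that opens haem and yields iron, carbon monoxide and biliverdin, spread the most of the 10 genes. Its SD over 38 arrays was 1.90, above the SD of 87.5% of the probes tested, whose median SD was 1.12. On LFC it had a lowest value of -2.20, a median of 1.59 and a highest of 3.87 (n = 10), and on HFC -1.74, 1.63 and 3.54 (n = 11). On HF5 it ran from -1.27 through 1.77 to 6.01 (n = 6), on HF20 from -4.11 through -0.01 to 2.06 (n = 5) and on HF75 from -1.27 through 1.46 to 1.70 (n = 6). All 5 diets overlap, and both extremes were at Week 3, where HF5 read 6.01, HF20 read -4.11 (not well above background), LFC -2.20, HFC 1.63 and HF75 1.66.

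Hmox1 in HFC minus LFC differed by -0.02 (SE 0.74, adjusted p = 0.9995). In HF5 minus HFC the difference was 1.65 (SE 0.92, adjusted p = 0.99997), with HF5 higher at 5 of 6 labels, and without the HF5 Week 3 array it was 0.62 (SE 0.83). Without Week 12 it was 2.14 (SE 1.01, unadjusted p = 0.0450, adjusted p = 0.9999 in limma), in a fit where 0.723% of all probes passed without adjustment. HF20 minus HFC was -0.66 (SE 0.99) and, without the Week 3 label, 0.38 (SE 0.74). The largest Hmox1 difference was between doses, HF20 minus HF5 at -2.30 (SE 1.04, unadjusted p = 0.0347, adjusted p = 0.9998 in limma), where 1.55% of all probes passed without adjustment. Without HF20 Week 3 this difference was -1.12 (SE 0.97), without HF5 Week 3 it was -1.24 (SE 0.93), and without the Week 3 label -0.51 (SE 0.78).

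The early Hmox1 values were close between the 2 diets. On the 10 LFC and HFC arrays from Day 1 to Week 0 it lay between 1.56 and 3.87, and the HFC and LFC arrays of 1 label differed by 0.05 to 1.29. From Week 3 on, 17 of 28 arrays fell below that range and 1 above it, and the HFC and LFC arrays of a label were 0.10 to 3.83 apart. Such a shift was not particular to Hmox1. From Week 3 on, Sod2 lay above its own early range on 16 of 29 arrays and below it on 2. Cat lay above its own on 14 of 28 arrays and below it on 1. The like share over all probes was not computed. The early and late ranges were picked out after the values were seen. The correlation of Hmox1 with the mean of the 10 macrophage markers was 0.36 over 38 arrays, 0.14 over the LFC and HFC arrays and 0.59 over the doses. With the endothelial markers these were 0.29, 0.54 and -0.06. The test across all time labels gave Hmox1 an adjusted p of 0.488, and no dose was measured before Week 3. Each scan date held arrays of 1 time label only, so differences between time labels cannot be told apart from differences between scan dates. Some labels also span several scan dates that split the diets. At Week 3, LFC was scanned on 1 date, HF5 and HFC on another, and HF20 and HF75 on yet another. The Hmox1 extremes of that label, on HF5 and HF20, thus came from separate dates. At Week 18, HF20 and HF75 were scanned apart from the other diets.

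**Figure D2:**
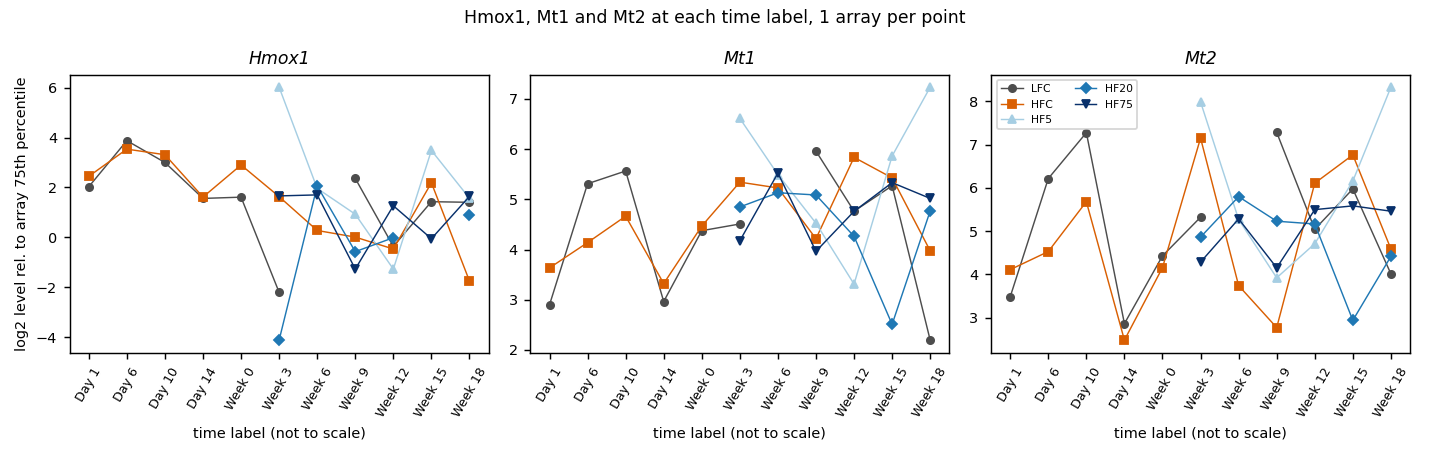
Levels of Hmox1, Mt1 and Mt2 (vertical axis, log2 relative to the array's 75th percentile) at the 11 time labels, 1 array per point and 1 line per diet. Hmox1 spans 6.01 (HF5) to -4.11 (HF20) at Week 3, and Mt1 and Mt2 both peak on HF5 at Week 18, at 7.23 and 8.33.

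The metallothionein genes varied together from array to array, and neither passed a test of diet. Mt1 on LFC had a lowest value of 2.20, a median of 4.64 and a highest of 5.96 (n = 10). On HFC these were 3.32, 4.47 and 5.84 (n = 11), on HF5 3.31, 5.68 and 7.23, on HF20 2.51, 4.81 and 5.13, and on HF75 3.96, 4.89 and 5.52 (n = 6 each). Mt2 on LFC ran from 2.86 through 5.18 to 7.28, on HFC from 2.48 through 4.53 to 7.15, on HF5 from 3.92 through 5.71 to 8.33, on HF20 from 2.93 through 5.01 to 5.80 and on HF75 from 4.15 through 5.37 to 5.58. The diets overlap for both genes, and HF5 holds the highest value of each, at Week 18.

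The fitted HFC minus LFC difference was 0.11 (SE 0.47) for Mt1 and -0.47 (SE 0.56) for Mt2. It was -0.24 (SE 0.43) for Mt1 without LFC Week 18 and -0.03 (SE 0.53) for Mt2 without Week 9. In HF5 minus HFC it was 0.62 (SE 0.58) for Mt1 and 0.95 (SE 0.70) for Mt2, with adjusted p = 0.99997 for each in limma. HF5 Week 18 weighed on both, since without it the differences were 0.12 (SE 0.57) and 0.39 (SE 0.69). The HF20 differences from HFC were -0.45 for Mt1 and -0.37 for Mt2, each smaller than its SE, and both changed sign without HF20 Week 15, the array with most spots marked, to 0.04 (SE 0.57) and 0.13 (SE 0.71). The HF75 differences were -0.09 and -0.06. Mt2 was saturated on HFC Week 12 and HF5 Week 15, where its value may be too low.

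Day 14 and Week 0 are the same day by the study's count of weeks, and they show how far arrays of 1 diet and day can lie apart. Mt1 read 2.96 on LFC Day 14 and 4.38 on LFC Week 0, and 3.32 and 4.47 on the HFC pair. Mt2 read 2.86 and 4.43 on LFC and 2.48 and 4.15 on HFC. Over the 10 genes and both diets the 20 such gaps had a median size of 0.91 and a largest of 1.68 (Mt2 on HFC), beside a median size of 0.73 and a largest of 4.51 for the 99 differences between HFC and LFC at 1 time label. The Day 14 and Week 0 arrays were scanned on separate dates.

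Across the 39 arrays the Pearson correlation of Mt1 and Mt2 was 0.83 (Spearman 0.84), and it was 0.79 over the LFC and HFC arrays and 0.90 over the doses. Over the 45 pairs of the 10 genes the correlations had a median of 0.11, and 5 pairs exceeded 0.5. These are descriptions with no p, since arrays share scan dates and the scaling to the 75th percentile. Among 8155 genes well above background on every array, Mt2 was the one most like Mt1, followed by Avpi1 (0.72) and Gm4974 (0.71). For Mt2 they were Mt1, Lmna (0.74) and Vcam1 (0.69).

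Among the glutathione genes neither subunit passed any test. Gclc had a median of 0.94 on LFC, with a range of -3.53 to 1.502, and its LFC Week 18 value of -3.53 was not well above background. On HFC it lay between -0.47 and 1.01, with a median of 0.24. The dose medians were -0.18 (HF5), -0.05 (HF20) and -0.24 (HF75), and all diets overlap. HFC minus LFC was -0.11 (SE 0.41), although HFC was lower at 7 of 10 labels. Week 18, where HFC read 4.01 above that dim LFC value, pulled the difference toward 0. Without Week 18 it was -0.58 (SE 0.27, unadjusted p = 0.0428, adjusted p = 0.999985 in limma), in a fit where 2.04% of all probes passed without adjustment. The dose differences from HFC were -0.28, -0.20 and -0.25 in order of dose, each smaller than its SE, and without Week 12 the HF5 difference was 0.13 (SE 0.54).

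Gclm was a dim probe, well above background on 27 of 39 arrays, and its values on the other arrays are uncertain. These were not simply its lowest values. LFC Week 18, at -4.09, was well above background, while HF75 Week 9, at -2.21, was not. It ran from -4.81 to -1.17 on LFC and from -2.65 to -1.64 on HFC, with medians of -2.31 and -2.39. HFC minus LFC was 0.37 (SE 0.34), and it rested on 2 labels, Week 3, where the LFC value of -4.81 was not well above background, and Week 18. Without Week 3 it was 0.13 (SE 0.34) and without Week 18 it was 0.17 (SE 0.36). The dose differences from HFC lay between -0.0014 and 0.30. Nqo1, the quinone reductase that is a classical readout of Nrf2, was well above background on 29 arrays. Its medians were -1.85 (LFC), -1.84 (HFC), -2.39 (HF5), -1.83 (HF20) and -1.63 (HF75), and its differences were 0.16 (SE 0.48) in HFC minus LFC and -0.52, -0.09 and -0.27 in the doses minus HFC, each smaller than its SE. Without Week 18, HF75 minus HFC was 0.33 (SE 0.54).

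Srxn1, sulfiredoxin, repairs peroxiredoxins that hydrogen peroxide has overoxidised. Its level on LFC had a lowest value of 1.32, a median of 2.14 and a highest of 4.18 (n = 10), and on HFC 1.12, 2.01 and 3.49 (n = 11). HF5 ran from 1.54 through 2.76 to 3.44 (n = 5), HF20 from 1.57 through 2.19 to 2.92 and HF75 from 1.16 through 2.03 to 3.73. HFC lay lower than LFC at 7 of 10 labels, and the groups overlap. HFC minus LFC was -0.56 (SE 0.33, unadjusted p = 0.0943, adjusted p = 0.9995 in limma), with a 95% interval from -1.23 to 0.10. With 1 label left out it ran from -0.67 (SE 0.31, unadjusted p = 0.0385, adjusted p = 0.99997 in limma; without Week 15) to -0.37 (without Week 18). Without LFC Day 10 and HFC Week 12, the 2 arrays low in Ucp1, it was -0.46 (SE 0.35). HF5 minus HFC was 0.67 (SE 0.43), with HF5 higher at 4 of 5 labels. The dimmer Srxn1 probes gave -0.29 (SE 0.47) and -0.46 (SE 0.48) for HFC minus LFC and 0.78 (SE 0.58) and 0.57 (SE 0.59) for HF5 minus HFC. These are the same signs as the brightest probe, but the signs differed at the higher doses. HF20 minus HFC was -0.03 for the brightest probe and 0.28 and 0.09 for the dimmer ones. HF75 minus HFC was 0.02 for the brightest and -0.10 and -0.47 for the dimmer ones, and all of these HF20 and HF75 values were smaller than their SEs.

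Txnrd1, the cytosolic thioredoxin reductase, gave 1 of the 2 pairwise differences with an unadjusted p under 0.05. Its levels on LFC had a lowest value of 1.89, a median of 2.57 and a highest of 3.32, and on HFC 1.20, 2.18 and 3.33. On HF20 the 6 arrays ran from -0.83 through 2.30 to 2.68, and the 5 arrays other than Week 15 lay at 1.79 or above. HF20 minus LFC was -1.16 (SE 0.49, unadjusted p = 0.0244, adjusted p = 0.492 in limma), in a comparison where 10.1% of all probes passed without adjustment. Without HF20 Week 15, the array with 71.4% of spots marked, it was -0.54 (SE 0.40). HF20 minus HFC was -0.84 (SE 0.47) and -0.24 (SE 0.38) without that array, and -1.13 (SE 0.52, unadjusted p = 0.0401, adjusted p = 0.882 in limma) without the Week 3 label, where 4.26% of all probes passed without adjustment. The correlation of Txnrd1 with the mean of 8 adipocyte markers was 0.65 over 39 arrays and 0.51 without HF20 Week 15. It was 0.33 over the LFC and HFC arrays and 0.88 over the doses. With the brown adipocyte markers it was 0.34 over 39 arrays, 0.13 over the LFC and HFC arrays and 0.81 over the doses. The values over the doses include HF20 Week 15. The part of these markers in the difference was not tested. HF5 ran from 0.99 to 3.53 and HF75 from 1.46 to 3.24, and their differences from HFC, 0.05 and -0.33, were smaller than their SEs.

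**Figure D3:**
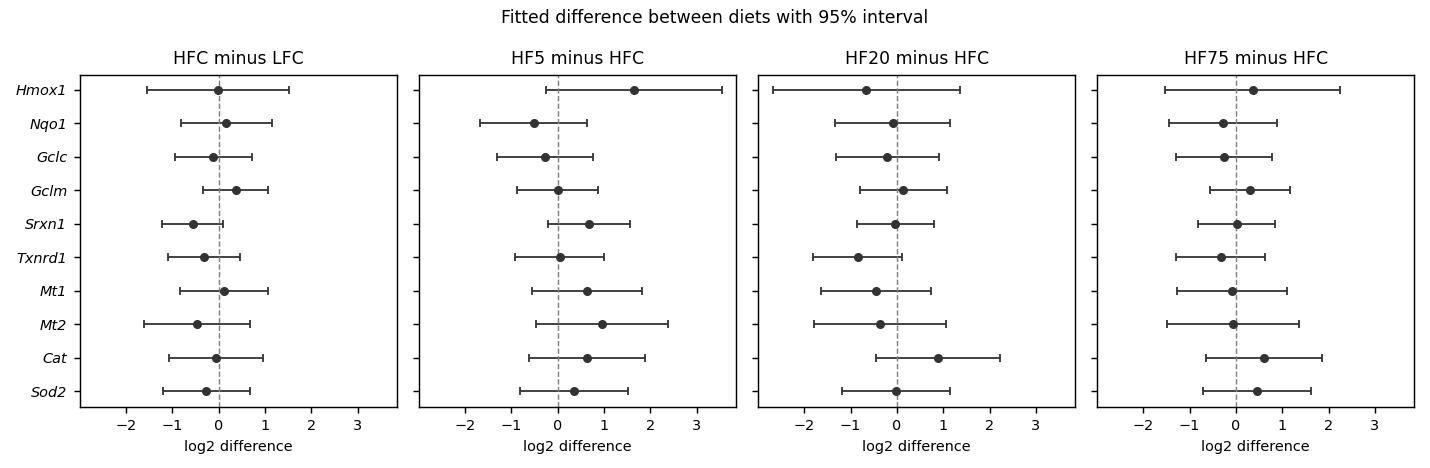
Fitted log2 difference (points, horizontal axis) with its 95% interval (bars) for each of the 10 genes in 4 comparisons of diets. Every interval crosses 0, and Hmox1 in HF5 minus HFC lies farthest from it, at 1.65.

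In the other comparisons the members again stood near the background. Without adjustment 0 of 10 passed in HF5 minus LFC (5.3% of probes) and HF75 minus LFC (10.6%), in HF75 minus HF5 (3.62%) and HF75 minus HF20 (0.344%), and 1 of 10 each in HF20 minus LFC and HF20 minus HF5, given above. The trend over the dose steps from HFC to HF75, on 24 arrays, passed for 0 of 10 (7.04% of probes), with slopes from -0.21 per step for Txnrd1 to 0.27 for Cat. The change of the HFC minus LFC difference from Day 1 to Week 0 to Week 3 to Week 18 passed for 0 of 10 (2.35% of probes), and the estimate farthest from 0 was that of Cat, at -1.26 (SE 1.02). Without Week 12, which holds an array low in Ucp1, Cat was at -0.36 (SE 0.74) and Gclm, at 1.02 (SE 0.80), lay farthest from 0. Without Week 9, Mt2 was at 1.73 (SE 0.61, unadjusted p = 0.0162, adjusted p = 0.769 in limma), against 0.61 (SE 1.11) with it, and 6.42% of all probes passed without adjustment. Any difference between time labels passed for 0 of 10 after adjustment, where 1.05% of probes passed, and for 0 of 10 before it, where 20.9% did. The HF comparisons share the HFC arrays, so they are not independent of each other.

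Cat and Sod2 varied with the fat cell markers from array to array, and neither passed a test of diet. Cat on LFC ran from 0.28 through 2.21 to 4.36 (n = 10), on HFC from -0.12 through 2.17 to 4.23 (n = 11), on HF5 from 1.01 through 3.24 to 4.50, on HF20 from 2.15 through 3.56 to 4.09 (n = 5) and on HF75 from 2.24 through 2.66 to 4.57. The groups overlap, and the lowest values of all, on HFC Week 12 and LFC Day 10, were on the 2 arrays low in Ucp1. HFC minus LFC was -0.06 (SE 0.49), and the doses minus HFC were 0.64 (SE 0.61), 0.90 (SE 0.65) and 0.61 (SE 0.61). The signs depended on the arrays and the background correction. Cat in HFC minus LFC was 0.41 (SE 0.41) without Week 12 and 0.63 (SE 0.47) without the 9 arrays titled BA or BAT, and with normexp background correction HF5 minus HFC and HF75 minus HFC were both -0.09 (SE 0.85).

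The correlation of Cat with the mean of 8 brown adipocyte markers was 0.82 over 38 arrays, and 0.76 without LFC Day 10 and HFC Week 12. With 8 general adipocyte markers it was 0.77. The 8 brown adipocyte markers had a median difference of 1.19 in HF5 minus HFC, 0.78 in HF20 minus HFC, 1.30 in HF75 minus HFC and -0.53 in HFC minus LFC, with 0 of 8 past the adjusted threshold in each. Other marker lists had medians of like size in the same dose comparisons, again with 0 markers past the threshold. In order of dose the 7 neutrophil markers tested had medians of 1.01, 1.32 and 1.46, the 6 erythroid markers tested 0.70, 0.79 and 1.56, and the 5 endothelial markers tested -0.96, -1.16 and -0.57. The mean level of the brown adipocyte markers ranged from -0.76 to 4.04 on LFC, -2.49 to 3.87 on HFC, 1.94 to 4.81 on HF5, 0.97 to 4.74 on HF20 and 1.92 to 5.09 on HF75. The part of the fat cell markers in the Cat differences was not tested. The genes most like Cat were Idh3a (0.95), a subunit of mitochondrial isocitrate dehydrogenase, Gpd2 (0.94), the mitochondrial glycerol phosphate dehydrogenase, and Hsdl2 (0.94).

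**Figure D4:**
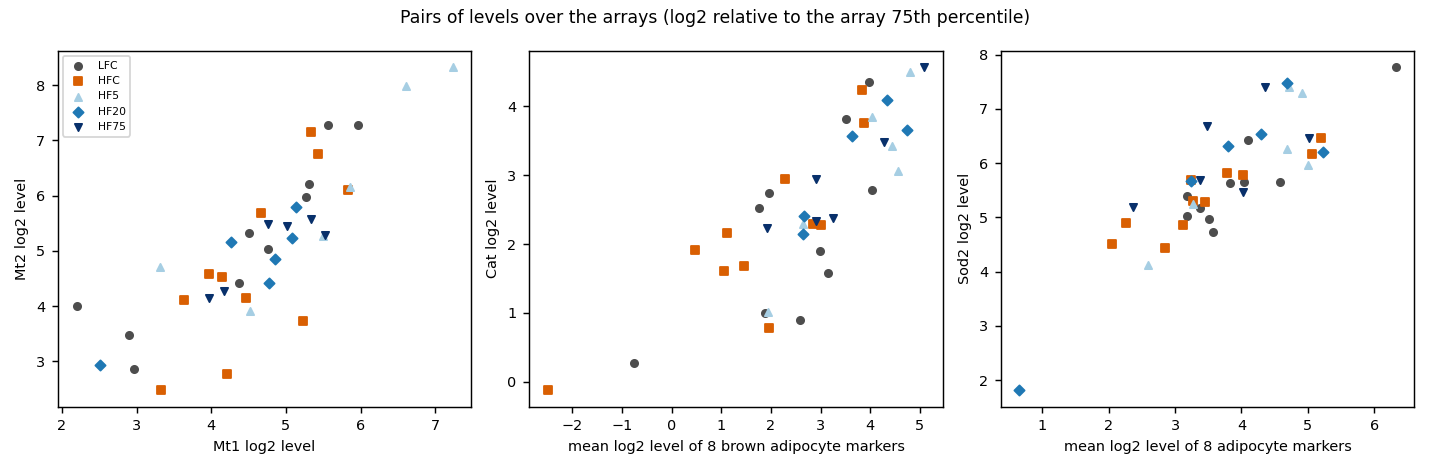
Mt2 against Mt1, Cat against the mean of 8 brown adipocyte markers and Sod2 against the mean of 8 adipocyte markers, each point 1 array with diet as colour and shape (log2 relative to the array's 75th percentile on both axes). The correlations are 0.83, 0.82 and 0.84, and the diets are mixed along each.

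Sod2 was a bright probe, saturated on 8 arrays, where its value may be too low. Its levels on LFC ran from 4.74 through 5.51 to 7.77, on HFC from 4.44 through 5.29 to 6.47, on HF5 from 4.13 through 6.12 to 7.39, on HF20 from 1.81 through 6.27 to 7.47 and on HF75 from 5.20 through 6.08 to 7.40. The diets overlap, and the lowest HF20 value was again Week 15. HFC minus LFC was -0.27 (SE 0.46), and the doses minus HFC were 0.36, -0.02 and 0.46, each smaller than its SE. Without HF20 Week 15, HF20 minus HFC was 0.76 (SE 0.45). The correlation with the adipocyte markers was 0.84 over 39 arrays and with the brown adipocyte markers 0.70, and without HF20 Week 15 they were 0.79 and 0.75. That array was lowest for Sod2 and for the adipocyte markers, but not for the brown adipocyte markers. The genes most like Sod2 were Idh3g, Atp5a1 and Ndufv1 (0.96, 0.96 and 0.95), which encode mitochondrial enzyme subunits. Sod2 and Cat themselves had a correlation of 0.67.

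For the remaining members the most similar genes were Ncl (0.69) for Hmox1, Cald1 (0.72) for Nqo1, Sfrs2 (0.82) for Gclc, Cdk2ap1 (0.56) for Gclm, Hspb8 (0.81) for Srxn1 and LOC100044555 (0.91) for Txnrd1. The value for Txnrd1 includes HF20 Week 15, where Txnrd1 was lowest. Srxn1 had correlations of -0.51 with the B cell, -0.48 with the T cell, -0.47 with the endothelial and -0.43 with the neutrophil markers. Without the 9 arrays titled BA or BAT these were -0.19, -0.21, -0.23 and -0.002. Its highest with any list was 0.42, with the adipocyte markers, and this was 0.11 without those 9 arrays. With the mesothelial markers it was 0.20, and 0.74 without those arrays. Txnrd1 had -0.45 with the erythroid and -0.52 with the B cell markers, and both were -0.22 without them. The correlation of Srxn1 with the erythroid markers was -0.53 over 38 arrays and -0.21 over the 29 arrays that are not titled BA or BAT. Those 9 titles stand apart in the labels without an explanation, and their part in these relations was not tested.

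A further 68 genes of the same pathways were examined, and 0 of 68 passed the adjusted threshold in HFC minus LFC or in any dose minus HFC. Without adjustment 2 of 68 passed in HFC minus LFC, 1 in HF5 minus HFC, 2 in HF20 minus HFC and 2 in HF75 minus HFC, all lower, beside 2.82%, 1.46%, 2.66% and 3.55% of all probes in either direction. The median differences were -0.17, 0.01, -0.30 and 0.05 over the list, beside 0.05, -0.03, -0.02 and 0.05 over all probes. Across time labels 0 of 68 passed.

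None of the 10 regulators passed in these comparisons. Nfe2l2, which encodes Nrf2, differed by -0.13 (SE 0.39) in HFC minus LFC, Keap1 by -0.63 (SE 0.34), Bach1 by -0.42 (SE 0.45) and Mtf1 by -0.35 (SE 0.23), while Mafk, a small Maf partner of Nrf2, differed by 0.45 (SE 0.67). Of 10 regulators 8 were lower in HFC than in LFC, 5 lower in HF5 than in HFC, 9 lower in HF20 than in HFC and 7 lower in HF75 than in HFC, with medians of -0.42, -0.04, -0.60 and -0.21. Over all probes 45.8%, 52.8%, 51.3% and 46.1% were lower in these comparisons. The HF20 arrays include Week 15, where 71.4% of spots were marked, and the regulators are not given without it.

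The other groups are given by their leading genes. In HFC minus LFC the smallest p among higher genes was that of Blvra, biliverdin reductase, at 0.80 (SE 0.41, adjusted p = 0.9995), and among lower genes that of Me1, the cytosolic malic enzyme that makes NADPH, at -2.33 (SE 0.59, unadjusted p = 0.000484, adjusted p = 0.9995 in limma). In HF5 minus HFC they were Slc7a11, the cystine importer that feeds glutathione synthesis, at 1.35 (SE 0.94), and Ephx1, microsomal epoxide hydrolase, at -0.79 (SE 0.35). In HF20 minus HFC they were Mt3, a metallothionein, at 0.94 (SE 0.74), and Abcc4, an efflux pump, at -0.92 (SE 0.44). In HF75 minus HFC they were Fth1, the ferritin heavy chain, at 0.99 (SE 0.63), and Slc39a14, an importer of zinc and iron, at -1.57 (SE 0.42, unadjusted p = 0.000802, adjusted p = 0.9998 in limma). In HFC minus LFC, where 54.2% of all probes were higher, 7 of 11 genes of the haem, iron and metal list were higher (median 0.53), 7 of 8 of the superoxide list (0.20), 4 of 15 of the glutathione list (-0.19), 3 of 12 of the thioredoxin list (-0.24) and 4 of 12 of the NADPH and detoxification list (-0.35), and 0 passed in each.

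**Figure D5:**
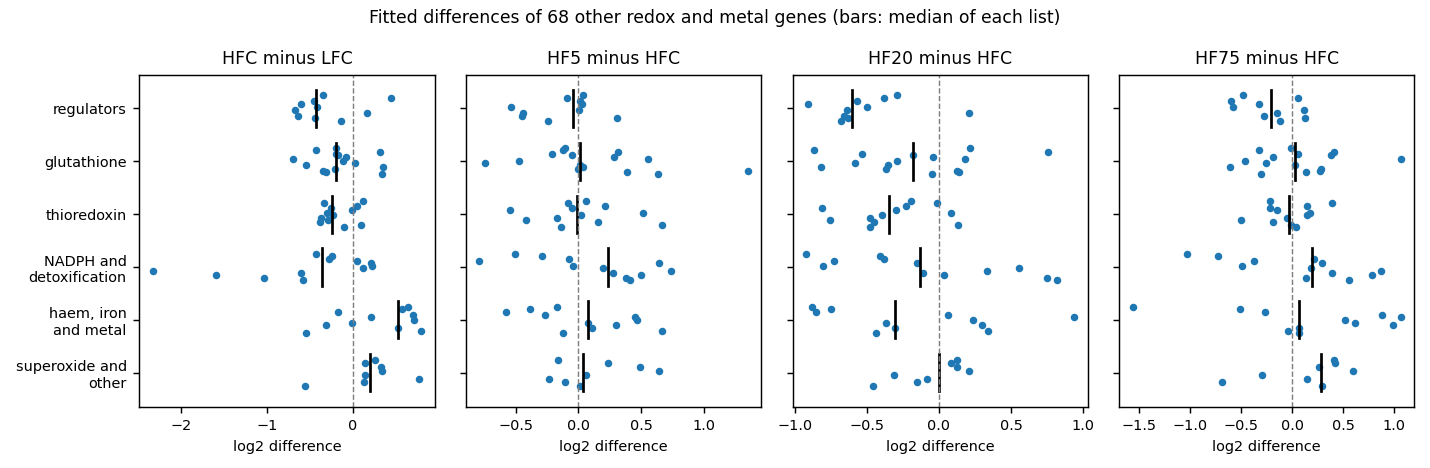
Fitted log2 differences (points, 1 per gene, horizontal axis with its own scale in each panel) of the 68 further genes in 6 lists, for 4 comparisons of diets, with the median of each list as a bar. No gene passes after adjustment, and the point farthest from 0 is Me1, at -2.33 in HFC minus LFC.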

How the data were processed

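RNA of brown fat stromal vascular cells was hybridised to 39 one-colour (Cy3) Agilent mouse arrays. The deposited scanner files hold spot intensity from Feature Extraction, version 10.5.1.1 per the file headers and 9.1 per the submitters' processing notes, background-subtracted within each array and not normalized between arrays. The deposited series table holds the authors' log2 ratios against the low fat array of a time label, except at Week 6, where no low fat array is used here and the baseline is unknown, and at Day 14, where the column at 0 is the one whose scanner file is assigned to HFC. It was used only for gene symbols and as an alternative. Here log2 processed intensity minus the 75th percentile of the array was taken, marked outlier spots were dropped, and spots of a probe were averaged. Of 40628 probes, 34043 were well above background on at least 6 arrays and were tested.

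The model of diet and time label was fitted over all arrays with limma 3.58.1 in R 4.3.3, with Benjamini-Hochberg adjustment over 34043 probes and a threshold of 0.05. The dose slope used 24 arrays with time label as a block, and the early and late comparison used the LFC and HFC arrays of shared labels. Values and figures were made in Python 3.11.15. Fits were checked on simulated data. Each diet has 1 array per time label, so time labels stand in for replicates, and p-values measure the spread between these arrays, which may be technical. The number of arrays limits the precision. Groups came from the sample labels.

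The genes named are the 10 members, the gene with the smallest p in each direction among 68 pathway genes per comparison, and the 3 genes most correlated with a member. Members and lists were chosen with earlier results of these data known. Alternatives covered scaling, background correction, filters, blocks, array weights and arrays left out. Promoters are RefSeq windows of build GRCm38.p6.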

Additional observations from a re-analysis of the deposited data

Results flagged for a closer look

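In 6 of 40 groups of a gene and a diet, 1 array lay far from the others of its diet, and chance marks about 1 in 20 groups this way. The HFC groups, with 11 arrays each, are not among these 40 and were not checked, since the rule used has no limit for that many arrays. On HF20 Week 15, where 71.4% of spots were marked, Txnrd1 read -0.83 (next 1.79), Mt1 read 2.51 (next 4.26) and Sod2 read 1.81 (next 5.67). Gclc read -3.53 on LFC Week 18 (next -0.17), where its spot was not well above background, and -1.40 on HF20 Week 18 (next -0.15). Nqo1 read -4.46 on LFC Day 1 (next -2.40), also not well above background.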

How the results depend on the processing

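Under 39 alternatives, 1587 recomputed values of 42 differences of single genes were obtained, and 0 passed the adjusted threshold. Of 293 recomputed counts of genes past the threshold 1 changed. With array weights, 4 members passed across time labels, where 20224 of 34043 probes passed as well, against 0 members and 358 probes without weights. The sign of a difference changed in 179 values, and in 167 of them both values lay within 1 SE of 0. The other 12 follow. With normexp background correction, HFC minus LFC was -0.35 for Gclm and 0.11 for Srxn1, and for Cat HF5 minus HFC was -0.091 and HF75 minus HFC -0.089. With array weights, HF20 minus HFC was 0.041 for Txnrd1 and 1.05 for Sod2. Without the 9 arrays titled BA or BAT, Cat in HFC minus LFC was 0.63. With 1 array or label left out, Sod2 in HF20 minus HFC ranged from -0.34 (HF20 Week 12) to 0.76 (HF20 Week 15) and was 0.73 without the Week 15 label, Cat in HFC minus LFC ranged from -0.26 (Week 6) to 0.41 (Week 12), and Mt1 in HF5 minus HFC ranged from -0.016 (Week 18) to 1.21 (Week 12). Without the 3 arrays with over 10% of spots marked, Sod2 in HF20 minus HFC was 0.62. The causes were not tested. That last setting, the arrays low in Ucp1, the exchanged Day 14 labels and scan date as a fixed block were chosen after seeing the data. So were, each as a setting of its own, leaving out HF5 Week 3, HF5 Week 18, HF20 Week 3, LFC Week 3 or LFC Week 18. Leaving out labels in the early and late comparison was also chosen then.

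The time label served as the block. Without the replicate block, 0 members passed in each comparison. LFC and HFC arrays of 1 label deviated together unevenly, with correlations of their residuals from -0.54 to 0.81, so the labels do not all pair the arrays. The 358 probes that differed across time labels became 8 (without Week 3) to 3351 (without Week 9) when 1 label was left out, and 64 (HF20 Week 3) to 572 (HF20 Week 15) when 1 array was. They were 9117 without the arrays titled BA or BAT, 2111 without the 3 marked arrays, 38 without the arrays low in Ucp1, 133 with probes averaged per gene, 61 with no filter, 11 with marked spots kept, 9 with Day 14 and Week 0 as 1 label or scan date as a random block, and 0 with normexp, with only probes well above background on every array or with the 5 labels that hold all diets, and no member passed in any of these. Dim probes limit Nqo1 and Gclm, and saturation limits Sod2 (8 arrays) and Mt2 (2 arrays).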
